A study of Mus musculus with 24 samples.

Results

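Dipyridamole was set against its vehicle in the hippocampus of Npc1-/- mice, using 8 of the 24 libraries of the series. The 8 were chosen by their labels alone: 4 libraries from mice given dipyridamole (DIP) and 4 from mice given vehicle (Veh), with no measured value in the choice. NPC1 is a lysosomal membrane protein that moves cholesterol out of the lysosome, and its loss causes Niemann-Pick disease type C, with lysosomal lipid storage, activated glia and poor myelin in the brain. Dipyridamole blocks the equilibrative nucleoside transporters, which raises adenosine outside cells, and inhibits several phosphodiesterases, the enzymes that break down cAMP and cGMP. The comparison asks whether weeks of the drug left a change in hippocampal RNA.

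The strain was BALB/cNctr-Npc1m1N/J, and its Npc1-/- mice lack the gene's function in every cell, not in brain cells alone. The Npc1-/- DIP mice (2 males and 2 females) had 30 mg/kg of dipyridamole injected into the peritoneum 5 days a week from postnatal day 28, in PBS with PEG400, and their tissue was taken at day 63. The Npc1-/- Veh mice (3 males and 1 female) had the same solution without the drug and were also 63 days old. The Npc1+/+ Veh mice, 4 females 65 days old, are given for scale only, since age goes wholly with genotype and no male is among them. Each library came from a mouse of its own and was made with an Ion AmpliSeq panel for the mouse transcriptome, so that each gene is read through a short amplicon, on an Ion S5. The 8 libraries held 3844971 to 11298903 counts (median 8.03 M), the shallowest being Npc1-/- Veh replicate 2, and sex-linked genes fitted the sex on every label. Levels below are CPM, counts scaled to a common library size. They compare 1 gene between libraries, and not 1 gene with another.

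Npc1 was checked first. It stood at 17.0, 18.6, 20.4 and 14.96 CPM in Npc1-/- DIP replicates 1 to 4, against 22.2, 17.5, 16.9 and 19.5 CPM in Npc1-/- Veh and 60.5, 68.0, 76.3 and 95.1 CPM in Npc1+/+ Veh. The 2 Npc1-/- groups overlapped and every one of their libraries lay below every Npc1+/+ library. Between DIP and Veh its log2 fold change was -0.08 ± 0.18 (SE), and -0.03 ± 0.19 without DIP replicate 4.

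Npc1-/- DIP replicate 4 went against its tissue label and stood apart from the other 7 libraries. Prox1, a transcription factor of dentate granule cells, stood at 110, 128, 105 and 14.2 CPM in DIP replicates 1 to 4, against 88.7 to 124 CPM in Veh. Lct, a dentate gyrus marker in mouse, stood at 0.263 CPM in DIP replicate 4 and at 20.7 to 30.3 CPM in the other DIP libraries, against 16.7 to 29.2 CPM in Veh. The CA1 markers Fibcd1 (2.23 CPM) and Spink8 (1.97 CPM) were likewise low in that library, against 19.3 to 42.0 and 14.9 to 24.4 CPM in Veh. Wfs1, another CA1 marker, was not low in it, at 165 CPM, with 148 to 186 CPM in the other DIP libraries and 52.9 to 235 CPM in Veh. Markers of the cerebral cortex were high in it. Cux2, a transcription factor of upper cortical layers, stood at 134 CPM in DIP replicate 4, against 24.8 to 38.0 CPM in Veh. The cerebellar granule cell gene Gabra6 had no count in it, although Cbln1, which the thalamus and cortex also express, was at 27.4 CPM, against 0.947 to 7.63 CPM in Veh.

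The genes farthest from the other 7 libraries in DIP replicate 4, picked for that and so given as values, were Lct, Klk10, St18 and Lhx9 on the low side and Cckbr (96.7 CPM, against 9.34 to 18.7 CPM in Veh), Rasgef1c and Cplx3 on the high side. It had 88 genes at least 4-fold below the median of the other 7 libraries and 23 at least 4-fold above it, of 10343 genes with a mean of at least 5 CPM. The other libraries had 0 to 11 below and 0 to 21 above. It was the lowest of the 8 in 16 of 24 hippocampal principal neuron genes and in 15 of 27 genes of mature oligodendrocytes and myelin, against 17.8% of all genes tested. It was the highest in 16 of 26 immediate early genes, against 18.5% of all genes. Its ion code was also that of the cerebellar library of the same mouse. Results below are given with it and without it. The cause of its profile was not tested.

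**Figure D1:**
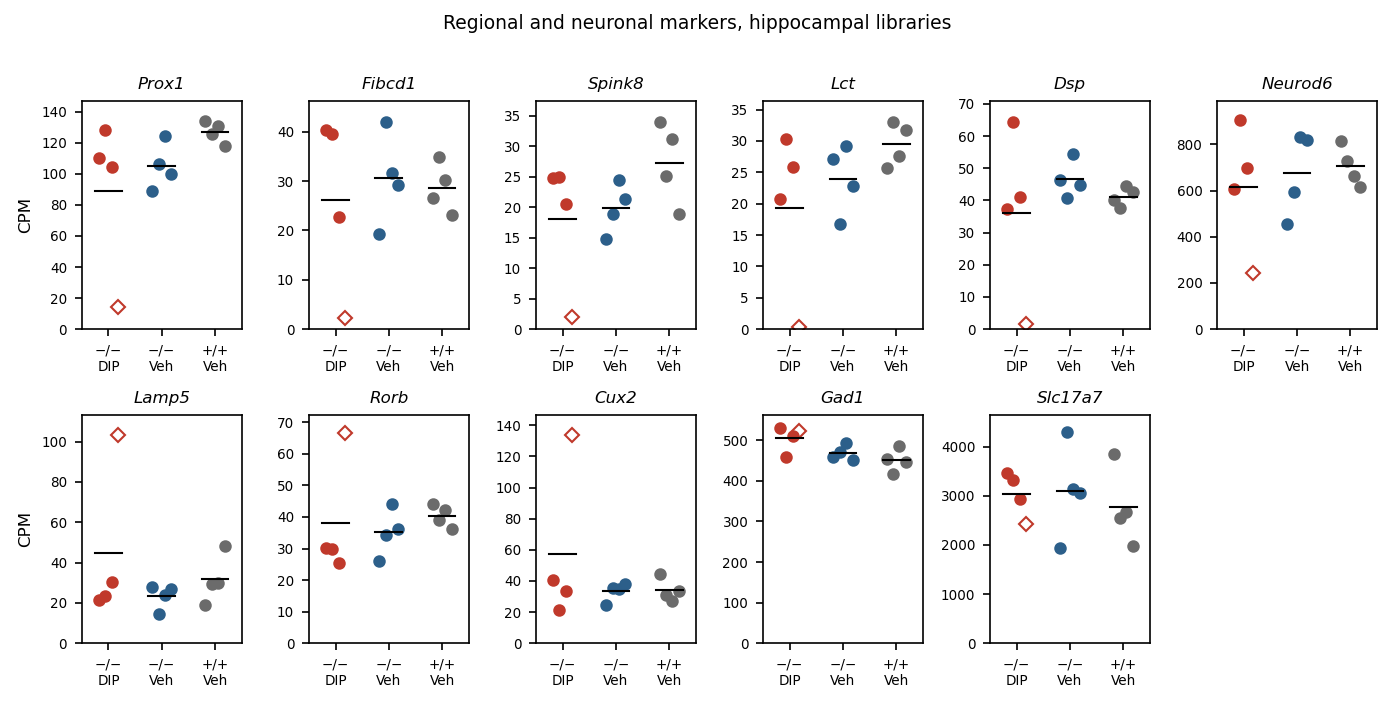
CPM of regional and neuronal markers in each hippocampal library (y axes, linear, from 0), with Npc1-/- DIP, Npc1-/- Veh and Npc1+/+ Veh from left to right and a bar at each group mean. The open diamond is DIP replicate 4, at 14.2 CPM for Prox1 and 134 CPM for Cux2, outside the range of the other 11 libraries for both.

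Choroid plexus, which lies along the hippocampus, was carried in uneven amounts. Ttr, the transthyretin gene that marks its epithelium, stood at 4404, 27.7, 253 and 61.6 CPM in DIP, against 3831, 7236, 61.8 and 478 CPM in Veh and 22.7 to 2558 CPM in Npc1+/+ Veh. Both Npc1-/- groups held libraries rich and poor in it. The summed level of the 16 listed choroid plexus genes ran from 171 to 5490 CPM in DIP and from 219 to 8606 CPM in Veh. With the choroid plexus score as a covariate edgeR called 0 genes, with 115 at an unadjusted p under 0.05.

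No gene passed the threshold between DIP and Veh. With sex in the model, 0 of 12740 genes (0%) had a Benjamini-Hochberg adjusted p under 0.05 by edgeR's quasi-likelihood test, and the smallest adjusted p was 0.9999. Without DIP replicate 4 the count was 0 of 12974 genes (0%). DESeq2 and limma-voom also called 0, with and without that library. At an unadjusted p under 0.05 edgeR gave 93 genes (0.73% of those tested), DESeq2 102 and limma-voom 119, and without DIP replicate 4 they gave 151 (1.16%), 159 and 169. If no gene differed, a share of about 0.05 would be reached on average, so these shares were below it. The reason was not tested. In the same fit 130 genes (1.02%) were higher and 76 (0.597%) lower in Npc1-/- Veh than in Npc1+/+ Veh. Npc1-/- DIP against Npc1+/+ Veh gave 203 higher (1.59%) and 139 lower (1.09%). These share the Veh and the DIP libraries with the drug comparison, so they are set beside it for scale.

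The intervals show how large a difference the data allow. For 10513 genes (82.5%) the 95% interval of the fold change, not adjusted for the number of genes, lay within 2-fold either way, and for 6486 (50.9%) within 1.5-fold. Without DIP replicate 4 these were 10425 (80.4%) and 6118 (47.2%). The median SE was 0.217 on the log2 scale (0.221 without that library), and the median log2 fold change over all genes was -0.014 (-0.015). The 4 DIP libraries all lay above the 4 Veh libraries in 81 genes (0.636%) and all below in 71 (0.557%). With 3 DIP libraries this was so for 200 (1.54%) and 217 genes (1.67%).

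The genes nearest to the action of the drug came first. Dipyridamole binds ENT1 and ENT2, the nucleoside transporters encoded by Slc29a1 and Slc29a2. Slc29a1 (GRCm39 chromosome 17, 45896126 to 45910532) stood at 7.23, 5.71, 6.21 and 4.20 CPM in DIP, against 3.83, 7.44, 5.29 and 6.23 CPM in Veh. Slc29a2 (chromosome 19, 5073888 to 5082000) stood at 30.5, 24.9, 31.6 and 24.8 CPM in DIP, against 29.9, 30.6, 20.9 and 21.5 CPM in Veh. The groups overlapped in both genes. The 95% interval of the fold ran from 0.698 to 1.65 for Slc29a1 and from 0.864 to 1.47 for Slc29a2 (0.731 to 1.79 and 0.868 to 1.52 without DIP replicate 4). Slc29a4, which carries monoamines and adenosine, was at 13.1, 8.01, 6.81 and 0.788 CPM in DIP, against 9.19, 26.6, 9.75 and 5.96 CPM in Veh. Its log2 fold change was -0.68 ± 0.58 with DIP replicate 4, the lowest of the 8 libraries, and -0.39 ± 0.52 without it. It was above 0, at 0.16, once Veh replicate 2, the highest, was left out as well. Slc29a3, the lysosomal nucleoside transporter, had -0.28 ± 0.24 and -0.34 ± 0.25. It was -0.02 without DIP replicate 1, the lowest of the 8 libraries, and -0.56 without DIP replicate 2.

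Adenosine receptors and the enzymes that clear adenosine were also without a call. Adora1, an inhibitory receptor, stood at 23.9, 27.3, 34.4 and 10.5 CPM in DIP, against 21.3, 33.0, 18.7 and 24.4 CPM in Veh and 35.2 to 61.4 CPM in Npc1+/+ Veh. The fold between DIP and Veh had an interval of 0.666 to 1.68, and of 0.818 to 1.72 without DIP replicate 4. Adk, adenosine kinase, which returns adenosine to AMP, stood at 87.5, 120, 119 and 156 CPM in DIP, against 172, 106, 101 and 141 CPM in Veh (interval of the fold 0.594 to 1.41, and 0.554 to 1.31 without replicate 4). Ada, adenosine deaminase, and Adora2a, a stimulatory receptor, averaged under 2 CPM in both groups, and their intervals were too wide to read (0.339 to 2.52 and 0.354 to 1.73). Of 25 genes listed for adenosine receptors, nucleoside transporters and purine enzymes 18 were tested, 0 passed and 0 had an unadjusted p under 0.05. The median log2 fold change of the list was -0.09 (-0.06 without DIP replicate 4), and the interval was within 2-fold for 15 of the 18.

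No phosphodiesterase passed. Pde5a, which breaks down cGMP and is inhibited by the drug, stood at 8.39, 10.4, 10.9 and 8.01 CPM in DIP, against 5.82, 12.0, 8.57 and 9.07 CPM in Veh. The interval of its fold was 0.749 to 1.554 (0.766 to 1.65 without DIP replicate 4). Pde10a, which breaks down both nucleotides and is best known from the striatum, stood at 104, 119, 109 and 68.3 CPM in DIP, against 114, 83.2, 108 and 107 CPM in Veh. Its interval of 0.765 to 1.27 was the narrowest of the 11 genes fixed for the drug, and 0.863 to 1.32 without replicate 4. Pde8a, a cAMP-specific enzyme, had 3.84, 4.72, 7.76 and 3.94 CPM in DIP, against 10.3, 3.19, 3.99 and 8.26 CPM in Veh and 13.8 to 19.3 CPM in Npc1+/+ Veh. All Npc1-/- libraries lay below the Npc1+/+ ones, with DIP and Veh overlapping. Over 18 tested phosphodiesterases 0 passed, 0 had an unadjusted p under 0.05, the median log2 fold change was -0.02 (-0.03 without replicate 4) and 17 intervals were within 2-fold.

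**Figure D2:**
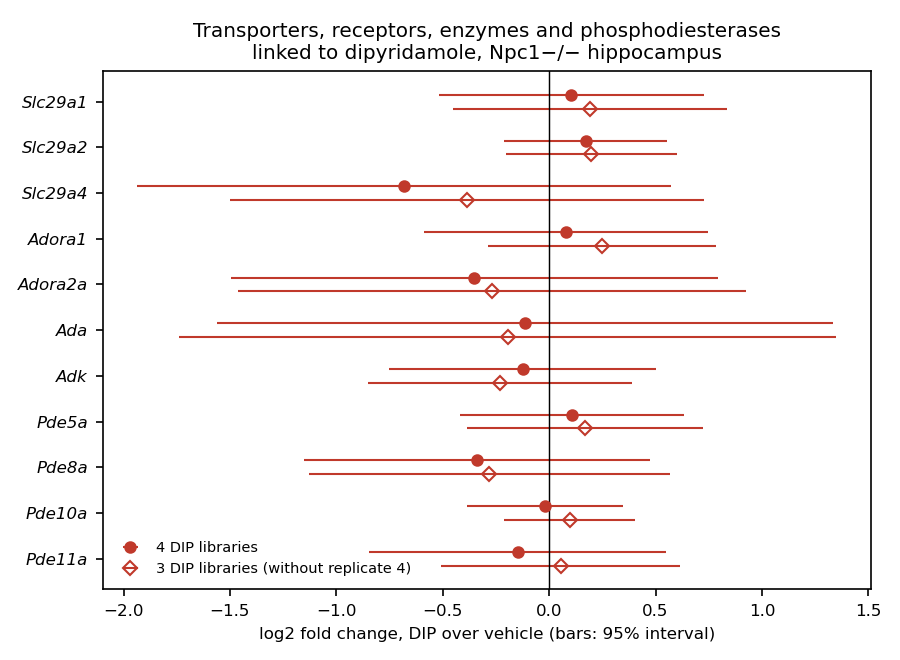
Log2 fold change of DIP over Veh (x axis) for 11 genes linked to the drug (y axis), with the 95% interval as a bar, using 4 DIP libraries (filled circles) or 3 without replicate 4 (open diamonds). Every interval includes 0, and Ada and Slc29a4 have wide ones.

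Genes downstream of cyclic nucleotides and of neuronal activity were next. Among 23 tested genes of cAMP and cGMP signalling 0 passed and the median log2 fold change was 0.00 (-0.06 without DIP replicate 4). Prkar1b, a regulatory subunit of protein kinase A, stood at 844, 759, 858 and 952 CPM in DIP, against 742, 727, 738 and 667 CPM in Veh, with no overlap and a log2 fold change of 0.21 ± 0.11 (adjusted p = 0.9999, edgeR). Crem, a cAMP-responsive transcription factor, stood at 1.79, 1.87, 2.03 and 1.58 CPM in DIP, against 2.30, 4.25, 2.702 and 2.57 CPM in Veh, with no overlap and -0.65 ± 0.32. Both kept separate groups without DIP replicate 4, with 0.19 ± 0.11 and -0.60 ± 0.34. They are among the 81 and 71 non-overlapping genes above. Of 26 immediate early genes, which neurons switch on when active, 0 passed and the median was 0.04 (-0.07 without replicate 4). Egr1 stood at 295, 418, 269 and 686 CPM in DIP, against 201, 278, 338 and 349 CPM in Veh. The change was 0.42 ± 0.26 on the log2 scale, and 0.17 ± 0.21 without replicate 4, the library with the highest value.

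Genes of disease-associated microglia, the state that the brain's immune cells take in disease, were higher in both Npc1-/- groups than in Npc1+/+ Veh, and none passed between DIP and Veh. Of 22 tested genes of this list 12 were higher in Npc1-/- Veh than in Npc1+/+ Veh, and 12 in Npc1-/- DIP than in Npc1+/+ Veh. Over all genes tested the shares were 1.02% and 1.59%. This list and those below were chosen with earlier results of these data known. Between DIP and Veh 0 of 22 had an unadjusted p under 0.05, and the median log2 fold change was 0.01 (-0.01 without DIP replicate 4). In 20 of the 22 the interval was within 2-fold. Cst7, a cysteine protease inhibitor that resting microglia hardly make, stood at 3.13, 2.74, 2.98 and 5.12 CPM in DIP, against 2.45, 2.92, 2.702 and 2.57 CPM in Veh, and had no count in Npc1+/+ Veh. Lyz2, a lysozyme gene whose reads may be shared with Lyz1, stood at 53.8, 87.6, 99.1 and 135 CPM in DIP, against 80.4, 46.0, 95.8 and 111 CPM in Veh and 9.06 to 12.6 CPM in Npc1+/+ Veh. DIP and Veh overlapped in both genes. The highest library in both was DIP replicate 4. Trem2, the lipid receptor behind this microglial state, stood at 51.8, 44.0, 43.0 and 45.8 CPM in DIP, against 25.4, 60.3, 64.3 and 26.8 CPM in Veh. The DIP values lay inside the Veh range, and the log2 fold change was 0.04 ± 0.30 (0.09 ± 0.33 without replicate 4).

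Itgax, an integrin of activated microglia, stood at 5.54, 6.04, 11.2 and 18.2 CPM in DIP, against 11.9, 10.1, 10.2 and 11.4 CPM in Veh and 0.339 to 1.03 CPM in Npc1+/+ Veh. The DIP libraries lay on both sides of the Veh libraries, with a log2 fold change of -0.42 ± 0.33. Without DIP replicate 4 it was -0.61 ± 0.29 with an unadjusted p of 0.0546 by edgeR. The sign turned with sex, at -0.95 in male mice only and 0.52 in female mice only, where Veh had 1 library. The homeostatic microglia list, which marks resting cells, had 0 of 14 past the threshold and a median of 0.01 (0.06). Of its genes Cx3cr1, the fractalkine receptor, stood at 41.2 to 56.4 CPM in DIP, against 41.7 to 60.9 CPM in Veh. In bulk tissue fewer cells of a type and less RNA per cell cannot be told apart.

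Complement and interferon genes, both immune programmes, held many genotype calls and none for the drug. Of 8 complement genes 6 were higher in Npc1-/- Veh than in Npc1+/+ Veh, and of 21 interferon genes 9 were, beside 1.02% of all genes. C4b, a complement component with a near copy, C4a, stood at 38.1, 37.1, 50.7 and 39.4 CPM in DIP, against 57.8, 39.1, 48.3 and 38.3 CPM in Veh and 6.18 to 7.45 CPM in Npc1+/+ Veh. DIP and Veh overlapped, with a log2 fold change of -0.20 ± 0.17 (-0.16 ± 0.17 without DIP replicate 4). C3, the central complement component, stood at 7.23, 4.50, 10.5 and 1.58 CPM in DIP, against 9.65, 2.92, 12.9 and 19.4 CPM in Veh. It spread widely within each group, and its log2 fold change of -0.96 ± 0.54 (-0.71 ± 0.47 without replicate 4) did not pass. Of the 8 complement genes 0 passed between DIP and Veh, with a median of -0.10 (-0.12).

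Ifit1, an antiviral gene that interferon induces, stood at 14.3, 13.8, 17.1 and 14.3 CPM in DIP, against 6.13, 7.44, 25.1 and 12.0 CPM in Veh and 2.34 to 4.29 CPM in Npc1+/+ Veh. The DIP libraries sat close together inside a wide Veh range. Ifi44, of the same programme, stood at 6.25, 8.34, 12.5 and 6.96 CPM in DIP, against 5.21, 2.92, 7.17 and 5.96 CPM in Veh, with a log2 fold change of 0.54 ± 0.37 (0.66 ± 0.37 without DIP replicate 4). Of the 21 interferon genes 0 passed and the median was 0.01 (0.08). Of 12 antigen presentation genes 0 passed and the median was 0.04 (0.05). The interval lay within 2-fold for 13 of the 21 and for 7 of the 12. For the rest of both lists it reached past 2-fold.

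Astrocytes, which take up glutamate and react to injury, had 5 of 15 reactive genes higher in Npc1-/- Veh than in Npc1+/+ Veh. Over all genes tested the share was 1.02%. Between DIP and Veh 0 of the 15 passed. Gfap, the filament gene of reactive astrocytes, stood at 53.9, 52.0, 51.0 and 53.7 CPM in DIP, against 52.7, 44.7, 56.5 and 55.5 CPM in Veh and 12.8 to 18.9 CPM in Npc1+/+ Veh. DIP and Veh differed by a log2 fold change of -0.01 ± 0.15 with a 95% interval from -0.33 to 0.32, and of -0.01 ± 0.16 without DIP replicate 4. Aspg, an asparaginase gene, was the 1 member of the reactive list with an unadjusted p under 0.05. It stood at 3.66, 3.40, 3.10 and 4.73 CPM in DIP, against 6.74, 3.72, 6.11 and 5.82 CPM in Veh and 0.515 to 0.904 CPM in Npc1+/+ Veh. Its change was -0.64 ± 0.28 with an unadjusted p of 0.0392, and -0.74 ± 0.29 without replicate 4, where the groups did not overlap (adjusted p = 0.9999 in both, edgeR). Of the 15 genes 4 were above 0 and the median was -0.17 (-0.21). In the general astrocyte list (0 of 13, median -0.07, and -0.09 without replicate 4), Slc1a2, the main glutamate transporter, stood at 2739, 3619, 3200.0 and 4129 CPM in DIP, against 4348, 3841, 3704 and 4306 CPM in Veh. The 3 DIP libraries other than replicate 4 lay below all of Veh, at -0.34 ± 0.15 with an unadjusted p of 0.0493. With all 8 libraries the groups overlapped, at -0.26 ± 0.17 with an unadjusted p of 0.145 by edgeR. The change was -0.39 in male mice only and -0.02 in female mice only, where Veh had 1 library. Without replicate 4, 1.67% of all genes tested had all DIP libraries below all of Veh.

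Of 43 lysosomal genes 5 were higher in Npc1-/- Veh than in Npc1+/+ Veh, beside 1.02% of all genes, and 0 passed between DIP and Veh. Grn, encoding progranulin, a lysosomal protein, stood at 117, 113, 117 and 107 CPM in DIP, against 131, 99.9, 117 and 116 CPM in Veh and 46.2 to 67.8 CPM in Npc1+/+ Veh. Apoe, the lipid carrier that glia secrete, stood at 1005, 958, 997 and 980 CPM in DIP, against 944, 861, 1052 and 1021 CPM in Veh and 454 to 576 CPM in Npc1+/+ Veh. DIP and Veh overlapped in both, with log2 fold changes of -0.03 ± 0.14 and 0.01 ± 0.12 (0.00 ± 0.15 and 0.02 ± 0.12 without DIP replicate 4). The median of the list was -0.01 (0.00) and the interval lay within 2-fold for 40. Tfeb, the transcription factor that drives lysosomal genes, stood at 13.4, 13.8, 14.2 and 11.4 CPM in DIP, against 9.80, 9.30, 11.6 and 10.8 CPM in Veh and 13.9 to 19.7 CPM in Npc1+/+ Veh. Without replicate 4 its groups did not overlap, at a log2 fold change of 0.40 ± 0.18 with an unadjusted p of 0.0459. With all 8 libraries they overlapped, at 0.33 ± 0.18. Without replicate 4, Tfeb was the 1 gene of the 43 wholly above Veh, and 2 lay wholly below. Over all genes tested these shares were 1.54% and 1.67%.

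Lipid metabolism did not differ at the threshold either. Cells sense sterol in the endoplasmic reticulum and raise the synthesis genes when it is low. All 21 tested genes of cholesterol synthesis and uptake had an interval within 2-fold, 0 passed, and the median log2 fold change was 0.04 (-0.01 without DIP replicate 4). Sc5d, a late enzyme of the pathway, stood at 40.4, 48.0, 33.8 and 41.7 CPM in DIP, against 40.9, 53.2, 50.4 and 50.1 CPM in Veh, with -0.23 ± 0.18 (-0.25 ± 0.20). Its groups overlapped. In 1 of the 21 genes all DIP libraries lay below all Veh libraries, beside 0.557% of all genes tested. Of 18 genes for LXR targets and lipoproteins, which sterols induce, 0 passed and the median was -0.05 (-0.04). Nr1h3, the LXR alpha receptor itself, stood at 1.52, 2.63, 2.03 and 2.89 CPM in DIP, against 0.613, 1.33, 2.23 and 0.947 CPM in Veh (0.72 ± 0.37, and 0.71 ± 0.41 without replicate 4). Of 27 sphingolipid genes 0 passed, with a median of -0.06 (-0.04), and 1 had all DIP libraries below all Veh libraries. Autophagy genes (0 of 18) had a median of -0.05 (-0.06). In 2 of the 18 all DIP libraries lay above all Veh libraries, beside 0.636% of all genes tested.

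Myelin genes, low in Npc1-/- hippocampus, were low in both Npc1-/- groups. Mag, a myelin glycoprotein gene, stood at 28.4, 17.5, 26.9 and 9.98 CPM in DIP, against 24.8, 30.0, 21.6 and 24.9 CPM in Veh and 102 to 185 CPM in Npc1+/+ Veh. Mal, a myelin proteolipid gene, stood at 27.1, 18.3, 28.5 and 17.6 CPM in DIP, against 23.6, 18.6, 24.4 and 28.4 CPM in Veh and 119 to 176 CPM in Npc1+/+ Veh. DIP and Veh overlapped, and DIP replicate 4 was the lowest library in both genes. Of 27 tested genes 21 were lower in Npc1-/- Veh and 25 in Npc1-/- DIP than in Npc1+/+ Veh. Over all genes tested the shares were 0.597% and 1.09%. Between DIP and Veh 0 of the 27 passed. The median of the list was -0.21 with 3 genes above 0, and -0.07 with 6 above 0 without replicate 4. The precursors and newly formed oligodendrocytes gave 0 of 16 and a median of -0.02 (-0.02).

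**Figure D3:**
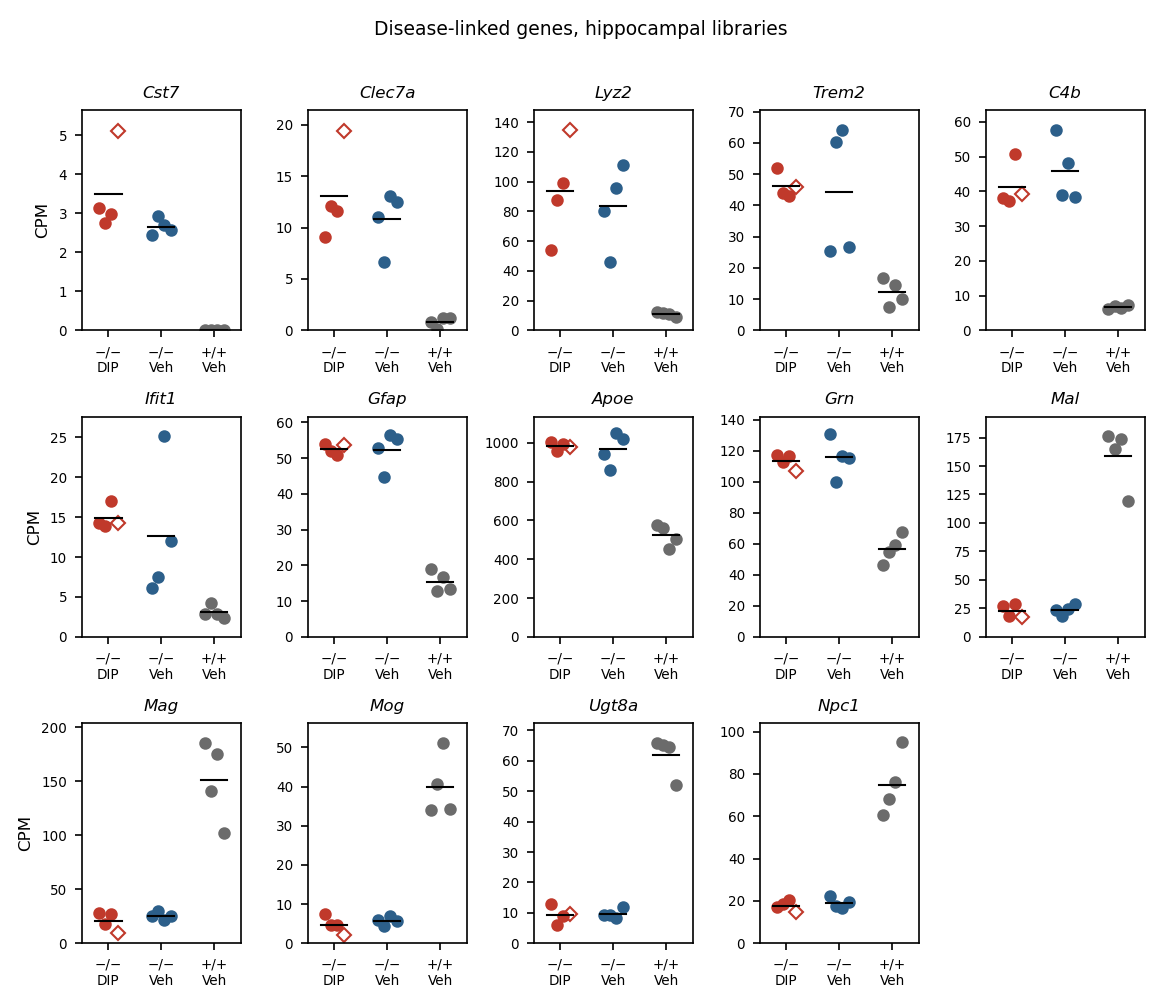
CPM of microglial, complement, interferon, astrocyte, lipid, lysosomal and myelin genes and of Npc1 in each hippocampal library (y axes, linear, from 0), with Npc1-/- DIP, Npc1-/- Veh and Npc1+/+ Veh from left to right, a bar at each group mean, and DIP replicate 4 as an open diamond. DIP and Veh points overlap in every panel, and the Npc1+/+ Veh points stand apart from both, as for Gfap at 12.8 to 18.9 CPM.

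Neuronal lists had no call, and that of the principal neurons moved with DIP replicate 4. The median of the 24 principal neuron genes was -0.09 with it and 0.07 without it, and the interval was within 2-fold for 17 of them with it and for 24 without it. Of 29 synaptic protein genes 0 passed, with a median of -0.02 (0.01), and of 15 interneuron genes 0 passed, with 0.03 (-0.07). Gad1, the enzyme that makes GABA, stood at 529, 458, 511 and 523 CPM in DIP, against 459, 471, 493 and 451 CPM in Veh. The groups overlapped.

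Stress pathways held the other list member with an unadjusted p under 0.05. Ppp1r15a (GADD34, which ends the integrated stress response by reversing the phosphorylation of eIF2 alpha) stood at 23.9, 26.8, 25.0 and 23.4 CPM in DIP, against 15.3, 22.3, 19.5 and 19.2 CPM in Veh and 14.3 to 19.1 CPM in Npc1+/+ Veh. The groups did not overlap, and the log2 fold change was 0.38 ± 0.17 with an unadjusted p of 0.0372 (0.41 ± 0.18 without DIP replicate 4) and an adjusted p of 0.9999 by edgeR. The rest of the 14 tested genes of that response, with a list median of 0.02 (-0.02), did not reach an unadjusted p of 0.05. Over all 37 lists, with a gene counted once per list, 2 of 662 members had an unadjusted p under 0.05, beside 0.73% of all genes. Without replicate 4 the count was 7, beside 1.16% of all genes tested in that fit. Leaving aside the choroid plexus list and the blood list, which had 2 tested genes, the list medians ran from -0.21 to 0.06 (-0.21 to 0.11 without replicate 4). The choroid plexus list had -0.53 (-0.52), with 0 of 15 intervals within 2-fold.

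**Figure D4:**
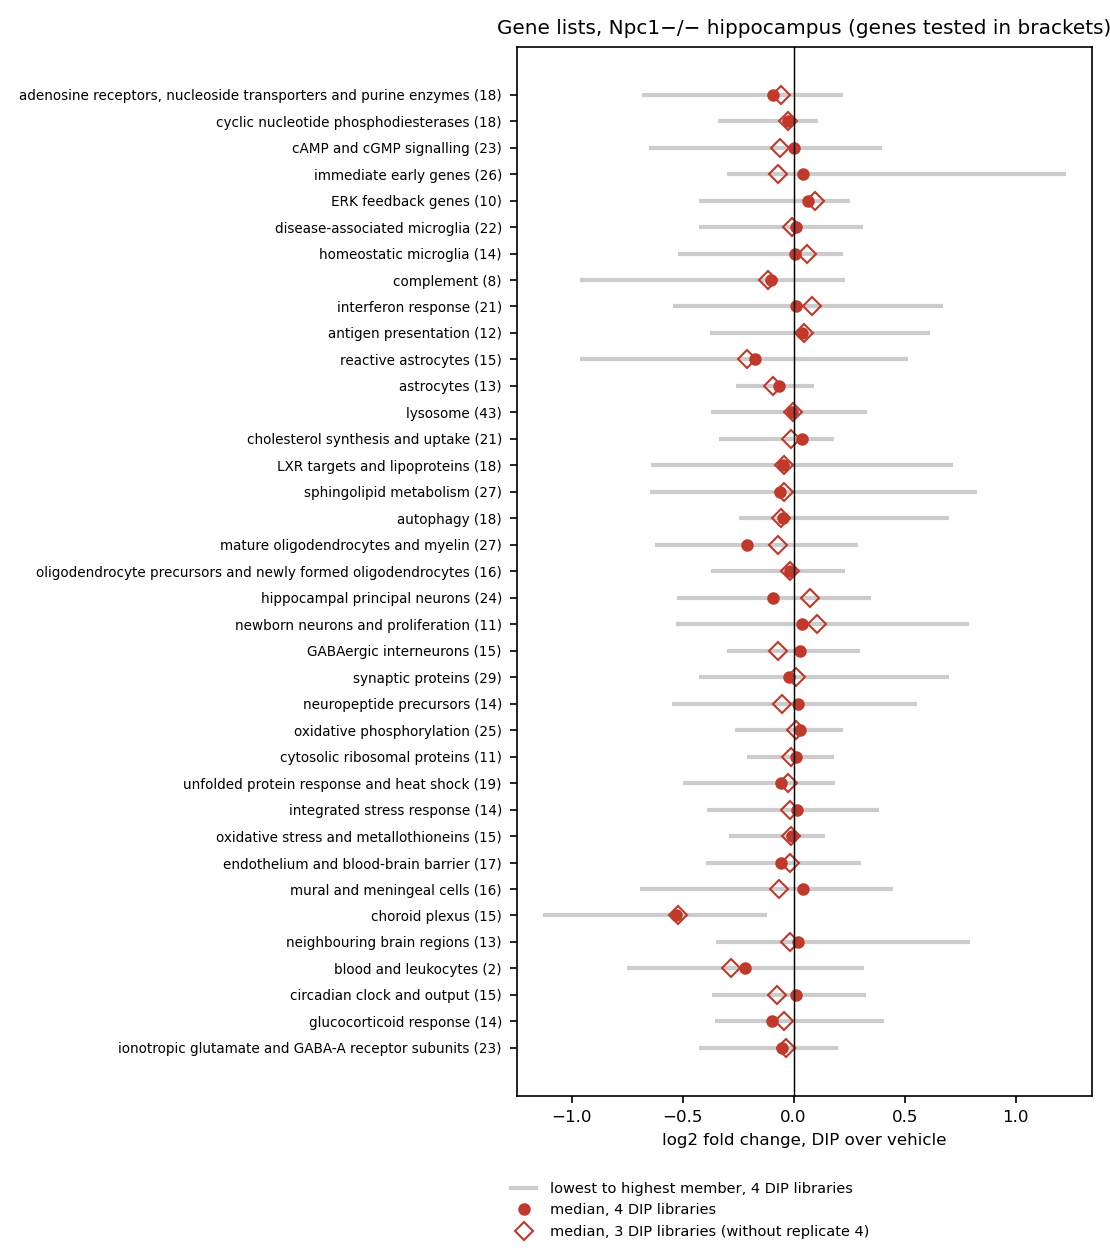
Log2 fold change of DIP over Veh (x axis) for 37 gene lists (y axis, with the number of genes tested). Filled circles are list medians with 4 DIP libraries, open diamonds those without replicate 4, and grey lines run from the lowest to the highest member; outside choroid plexus and blood the medians lie between -0.21 and 0.11.

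Single genes with the smallest p are given as values, since none passed. The smallest of all was that of Slfn3, a gene of the Schlafen family, at 0.00128 (0.000833 without DIP replicate 4), with an adjusted p of 0.9999 by edgeR. Slfn3 (chromosome 11, 83082156 to 83105980) was below the level set for named genes and is given after its values were seen. It stood at 6.52, 5.60, 5.49 and 4.33 CPM in DIP, against 1.99, 1.86, 3.17 and 2.44 CPM in Veh and 2.06 to 3.36 CPM in Npc1+/+ Veh. The groups did not overlap, at a log2 fold change of 1.18 ± 0.29 (1.29 ± 0.30 without replicate 4). Its reads may be shared with close family members. In the cerebellum of the same mice the log2 fold change was 0.07 ± 0.32, and the difference between the tissues was 1.07 ± 0.45 (adjusted p = 1, edgeR).

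The 10 genes on the higher side were picked by the smallest p among those with a mean of at least 5 CPM. Their log2 fold changes ran from 0.35 to 0.64. Groups did not overlap in 7 of the 10, beside 0.636% of all genes tested, and such a pick favours separate groups. Spns1, which moves lysophospholipids out of the lysosome, stood at 23.04, 21.3, 22.2 and 20.9 CPM in DIP, against 18.5, 15.4, 17.9 and 16.4 CPM in Veh and 18.5 to 22.4 CPM in Npc1+/+ Veh. Cgrrf1, a RING finger gene (chromosome 14, 47069582 to 47091650), stood at 22.2, 18.7, 19.2 and 21.3 CPM in DIP, against 16.1, 14.9, 16.1 and 13.0 CPM in Veh, with the smallest p of the 10, 0.0137. Pigg, of the synthesis of GPI anchors, stood at 13.7, 13.4, 13.3 and 13.7 CPM in DIP, against 7.05, 11.2, 11.7 and 8.66 CPM in Veh. All DIP libraries were above all Veh libraries in these 3 genes, by log2 fold changes of 0.35 ± 0.14, 0.43 ± 0.15 and 0.46 ± 0.19 (0.37 ± 0.15, 0.42 ± 0.16 and 0.48 ± 0.20 without DIP replicate 4). Thap1, a transcription factor mutated in a human dystonia, stood at 12.6, 10.2, 11.3 and 12.1 CPM in DIP, against 5.06, 8.51, 9.63 and 7.58 CPM in Veh. Sertad1, a transcriptional coregulator, rested in part on replicate 4, with 24.1, 22.9, 21.0 and 45.8 CPM in DIP, against 15.01, 18.3, 17.1 and 18.4 CPM in Veh. The log2 fold change of Sertad1 was 0.63 ± 0.23 with that library and 0.40 ± 0.16 without it. The others were Mocs3, Csgalnact1, Cisd3, Lrrc56 and Clk3.

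The 10 genes on the lower side, picked in the same way, had log2 fold changes from -0.92 to -0.41. Groups did not overlap in 6 of the 10, beside 0.557% of all genes tested. Ttc26, a part of the transport machinery of cilia (chromosome 6, 38358404 to 38404582), stood at 4.91, 6.15, 4.06 and 4.46 CPM in DIP, against 9.50, 6.38, 8.22 and 8.26 CPM in Veh and 7.30 to 8.24 CPM in Npc1+/+ Veh. It had the smallest p of the 10, 0.00469 before adjustment by edgeR. The log2 fold change was -0.70 ± 0.21, and -0.69 ± 0.22 without DIP replicate 4. Plekhh1 stood at 9.29, 5.82, 9.31 and 6.43 CPM in DIP, against 19.9, 11.4, 10.2 and 14.2 CPM in Veh and 28.9 to 46.9 CPM in Npc1+/+ Veh. It was lower in both Npc1-/- groups than in Npc1+/+ Veh, and DIP lay below Veh by -0.79 ± 0.26 (-0.75 ± 0.28). Tnc, the matrix protein tenascin C, stood at 5.89, 6.26, 6.92 and 4.33 CPM in DIP, against 12.7, 9.30, 8.57 and 8.26 CPM in Veh, at -0.69 ± 0.26 (-0.61 ± 0.27). Neat1, a nuclear RNA that builds paraspeckles, stood at 15.9, 20.2, 21.0 and 16.7 CPM in DIP, against 28.8, 27.4, 25.5 and 21.0 CPM in Veh and 8.81 to 12.9 CPM in Npc1+/+ Veh. The groups all but separated in Neat1, meeting at 21.0 CPM, with -0.48 ± 0.18 (-0.44 ± 0.19). The others were Yeats4, Cntnap5b, Pcdhb4, Zfp653, Tti1 and Filip1, of which Pcdhb4 has near-identical neighbours that may share reads.

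**Figure D5:**
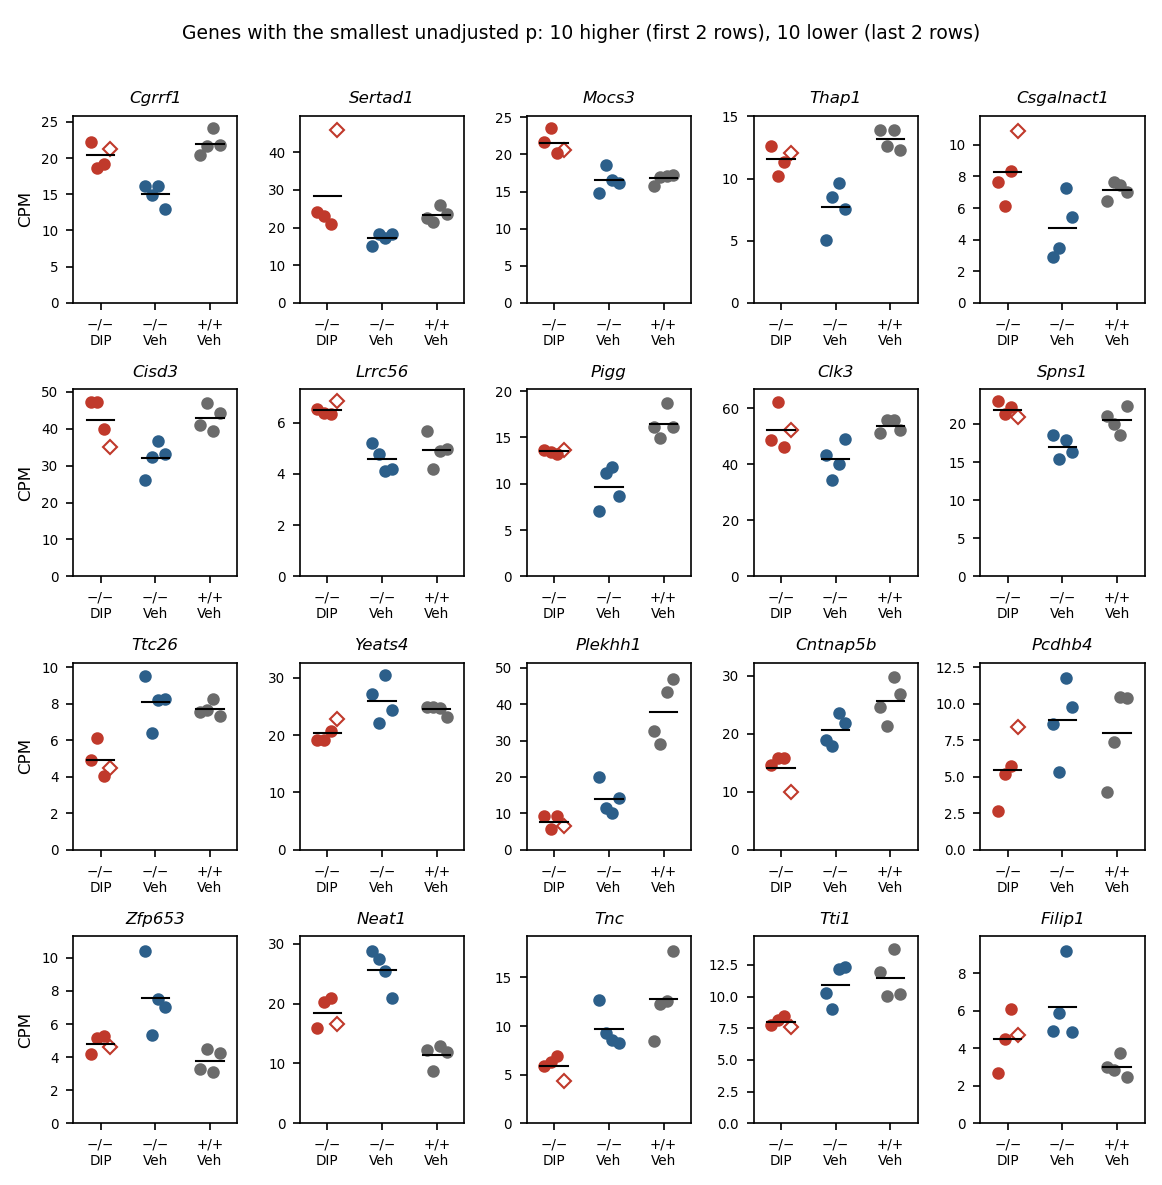
CPM in each hippocampal library (y axes, linear, from 0) of the 10 higher and 10 lower genes with the smallest unadjusted p and a mean of at least 5 CPM, with Npc1-/- DIP, Npc1-/- Veh and Npc1+/+ Veh from left to right, a bar at each group mean, and DIP replicate 4 as an open diamond. DIP and Veh do not overlap in 7 of the higher and 6 of the lower genes, beside 0.636% and 0.557% of all genes tested. None of the 20 passed the adjusted p.

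Leaving out DIP replicate 4 changed which genes stood nearest to the threshold, and 8 of the 20 named with it and of the 20 named without it were shared. On the lower side without it stood Plekhm2, an adaptor that links lysosomes to kinesin, and Bloc1s6, a subunit of a complex for lysosome-related organelles. Plekhm2 stood at 98.5, 76.3, 61.1 and 142 CPM in DIP, against 136, 96.7, 135 and 132 CPM in Veh. Plekhm2 had a log2 fold change of -0.67 ± 0.18 without that library and -0.46 ± 0.22 with it. Bloc1s6 stood at 67.2, 89.1, 76.9 and 104 CPM in DIP, against 112, 114, 97.8 and 116 CPM in Veh, with -0.48 ± 0.14 and -0.39 ± 0.16. In both, replicate 4 was the highest DIP library. On the higher side stood Cisd3, a mitochondrial iron-sulfur protein gene, at 47.2, 47.3, 40.0 and 35.0 CPM in DIP, against 26.0, 32.4, 36.6 and 33.2 CPM in Veh. The log2 fold change of Cisd3 was 0.48 ± 0.15 without replicate 4 and 0.41 ± 0.15 with it. Drd5, a dopamine receptor of the hippocampus, stood at 8.93, 12.8, 10.9 and 0.525 CPM in DIP, against 8.43, 7.44, 6.70 and 6.497 CPM in Veh. It was separate at 0.59 ± 0.23 without replicate 4, and overlapped at 0.28 ± 0.50 with it.

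The cerebellum came from the same mice, so it was not an independent reading of the drug. Its Npc1-/- Veh replicate 2 held 1.83 M counts, the fewest of the 24 libraries. In the cerebellum DIP against Veh called 0 of 12921 genes (0%) by edgeR, with 300 at an unadjusted p under 0.05. The difference between the hippocampal and the cerebellar change, tested with the mouse as a block, called 0 of 13436 genes (0%), with 222 (1.65%) at an unadjusted p under 0.05, and 0 of 13553 without the mouse of DIP replicate 4, with 248. Of the 10 higher hippocampal genes 5 were also above 0 in the cerebellum, and of the 10 lower ones 8 were below 0, with 0 of the 20 at an unadjusted p under 0.05 there. Of all 12921 genes tested in the cerebellum 6198 were above 0. Ttc26 had 0.35 ± 0.37 in the cerebellum and Spns1 -0.06 ± 0.17. Among the genes with the smallest p for the tissue difference, Cntnap5b, a neuronal cell adhesion gene, had -0.55 ± 0.19 in hippocampus and 0.39 ± 0.19 in cerebellum. Its difference was -0.97 ± 0.28 with an unadjusted p of 0.00298 and an adjusted p of 1 by edgeR.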

How the data were processed

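Gene-level read counts came from 24 libraries of 12 mice, of which 8 are compared here. Per the file headers the deposited values are raw counts from featureCounts 2.0.3 on GENCODE M34, without strand, so overlapping antisense genes cannot be told apart. Read checks (FastQC 0.11.9), trimming (Trimmomatic 0.39), alignment (STAR 2.7.9a) and the build (GRCm39) are named per the submitters' processing notes. Amplicon reads carry no molecular identifiers, so counts are not numbers of independent molecules. IDs without a symbol held 0.21% of counts. Replicates differed by 7.48 to 46.0 chi-square per degree of freedom. Each of the 8 libraries compared came from its own mouse and counted once.

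The 12 hippocampal libraries were fitted with edgeR 4.0.16 (R 4.3.3; TMM, filterByExpr, robust quasi-likelihood, sex as covariate), with Benjamini-Hochberg adjustment over all genes tested and a threshold of 0.05. Sex was in the model because it was unbalanced between the groups. The tissue difference used all 24 libraries with the animal as block. Alternatives were DESeq2 1.42.0, limma 3.58.1 with voom, other scalings, filters and sample sets; the fit was tested on simulated data. Each gene list had its median and counts given, without a list test.

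Npc1, 10 genes a direction, with a mean level of 5 CPM or more (the smallest p where none passed), up to 2 genes a list and 11 genes tied to the drug were named by rule. The members and lists were chosen with earlier results of these data known; the cerebellar markers, the genes taken from the genotype comparison and the genes extreme in DIP replicate 4 were chosen after their values were seen. Some genes are not reported here.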

Additional observations from a re-analysis of the deposited data

Results flagged for a closer look

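In 226 groups of 4 libraries, covering the library total, 37 list scores and 75 genes, 12 had a library far from the other 3. Chance would flag about 1 in 20 of independent groups. These groups were not independent, as lists and genes share libraries and members, so the 12 were not weighed against chance. The genes and lists were chosen with earlier results of these data known. Of the 12, 8 were Npc1-/- DIP replicate 4. In that library the mean log2 CPM was 5.30 over the principal neuron genes (6.67 to 6.81 in the other DIP libraries), 3.515 over antigen presentation genes (3.34 to 3.36) and 5.778 over circadian genes (5.44 to 5.47). Also far from the other 3 in it were Cpne4, a gene of CA3 neurons, at 67.3 CPM (134.5 to 148), and the cortical markers Lamp5 at 103 CPM (21.7 to 30.6), Rorb at 66.7 CPM (25.6 to 30.2) and Cux2 at 134 CPM (21.2 to 40.4). Sertad1 stood at 45.8 CPM in it (21.0 to 24.1).

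DIP replicate 3 was apart in C4b at 50.7 CPM (37.1 to 39.4 in the other DIP libraries) and in Ifit1 at 17.1 CPM (13.8 to 14.3). DIP replicate 1 was apart in Gjb1, a gap junction gene of oligodendrocytes, at 5.09 CPM (1.76 to 2.23). Npc1-/- Veh replicate 4 was apart in Nipal4, a magnesium transporter gene, at 3.11 CPM (0.797 to 1.17 in the other Veh libraries).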

How the results depend on the processing

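No alternative brought a gene past the adjusted p: 0 were called in 26 alternatives to the comparison of 4 DIP with 4 Veh libraries, with 48 to 324 genes at an unadjusted p under 0.05, in 13 without DIP replicate 4 (106 to 275) and in 10 for the tissue difference (171 to 298). The 324 came from limma-voom with library quality weights, chosen after seeing the data, which gave DIP replicate 4 the lowest weight, 0.446. Pairing by replicate number was not settled. Same-numbered DIP and Veh libraries correlated from -0.077 to 0.153 in their deviations, and no DIP library correlated best with its own number. Uneven choroid plexus and DIP replicate 4 also enter these correlations, so they cannot exclude a pairing. Same-numbered DIP and Veh mice had the same sex apart from replicate 4. With a replicate block the count was 0 (52 genes at an unadjusted p under 0.05, against 72 in the same 8 libraries without it). Female mice only leaves 1 Veh library, whose spread is taken from the other groups. Of the fold changes of 133 named genes and the medians of 37 lists under these alternatives, 3278 and 944 values moved by less than their error and 143 and 17 by more. Of these, 60 came with female mice only and 22 with male mice only. With 4 mice a group the median 95% interval, not adjusted for the number of genes, was ±0.465 on the log2 scale. Smaller differences in single genes were mostly not detectable, and larger ones could be missed after adjustment. Of 12740 genes 55 had an estimated change of at least 2-fold, and 0 passed.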
